A study of Capsicum annuum and Solanum lycopersicum with 125 samples.

Results

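Jasmonate biosynthesis in grafted tomato stems was followed through a list of 10 gene models assigned to its successive steps: 5 lipoxygenases (SlLOX1-7, Solyc08g014000; SlLOX3, Solyc03g122340; Solyc01g099190; Solyc01g006540; Solyc01g006560), 2 allene oxide synthases (SlAOS, Solyc04g079730; Solyc11g069800), the cyclase SlAOC1 (Solyc02g085730), the reductase SlOPR3 (Solyc07g007870) and JAR1 (Solyc10g011660). The list goes by enzyme family, and not every listed lipoxygenase need feed jasmonate synthesis. Names that begin with Sl are the study's, and the other genes are called by their family only. Of these, 9 were among the 34688 tomato genes counted, and Solyc01g006560 was not analysed here. The filter on low counts kept 12176 genes and 6 of the members, namely SlLOX1-7, SlLOX3, AOS Solyc11g069800, SlAOC1, SlOPR3 and JAR1. SlAOS, Solyc01g006540 and Solyc01g099190 missed it and are described by their counts. The chromosome number is carried in each identifier after "Solyc". Exon positions and sequences were not used here.

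Jasmonates are lipid-derived hormones that plants make after wounding and during development, and in tomato they are best known for switching on defence proteins around and far from a wound. Synthesis begins in the plastid, where a lipoxygenase adds oxygen to linolenic acid, allene oxide synthase (AOS) turns the product into an unstable allene oxide, and allene oxide cyclase (AOC) closes it into the cyclic precursor OPDA. OPDA reductase 3 (OPR3) reduces this precursor in the peroxisome, and the conjugating enzyme JAR1 joins the finished jasmonic acid to isoleucine, which gives the form that the COI1 receptor perceives. Plant lipoxygenases fall into classes that oxygenate different carbons of the fatty acid, and only one class feeds this route; which class each listed lipoxygenase belongs to was not established here.

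The tomato plants were Solanum lycopersicum M82 and the pepper partner was Capsicum annuum California Wonder. Pieces of stem were taken on 3 occasions, 7, 14 and 21 DAG (DAG, days after the graft was made), from ungrafted tomato stems, from the scion (the grafted shoot) and the stock (the rooted base) of tomato grafted on itself, and from heterografts, in which a tomato scion grew on a pepper stock or a tomato stock carried a pepper scion. Heterografted tomato scions and heterografted tomato stocks thus came from different plants of reciprocal combinations. Between them, position and graft combination cannot be told apart. Tomato was grafted at 14 days of age and pepper at 21 days, and grafts healed in the dark for 3 days. The 15 tomato groups held 3 to 5 libraries each, 61 in all, read from the 3′ ends of transcripts. Each piece holds several tissues, so fewer cells that express a gene and less RNA per cell cannot be told apart. The tissue was not checked against marker genes, because no annotation of tomato markers was used here.

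Total counts ran from 952084 to 3136541 in 55 libraries. The tomato stocks under pepper scions stood apart after 7 DAG. At 14 DAG these 3 libraries held 1509, 912 and 900 counts, and every member was at 0. A gene would have needed 903 CPM (a count scaled to a fixed library total) over the 3 libraries to reach the limit that a count of 0 allows, which is 3 counts, so no member was detectable at this depth, and 0 members were called where 13.8% of genes were against ungrafted stems and 12.6% against self-grafted stocks. At 21 DAG they held 32731 to 267066 counts. All comparisons below are given for scions and for 7 DAG stocks first, and the stocks of 21 DAG are described separately. Among the other groups of 14 and 21 DAG, the same numbers of members were called without these stock libraries.

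Levels below are CPM scaled by TMM, which balances libraries on the genes they share, over all 61 libraries. In the 55 deep libraries 1 count was worth 0.314 to 1.01 CPM. Fold changes come from edgeR's quasi-likelihood fit of the 5 groups of a day and are given with their standard error (SE). The threshold for a call was an adjusted p under 0.05 together with a log2 fold change past 1.5 in either direction. Every grafted group of a day was compared with the same ungrafted libraries.

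The lipoxygenase SlLOX1-7 and the cyclase SlAOC1 were higher in heterografted than in self-grafted scions at each of the 3 days. SlLOX3 was higher in both heterografted tissues than in ungrafted stems at 7 DAG, and SlLOX1-7 had no count in any heterografted stock of that day. No member was called in a self-graft against ungrafted stems on any day. SlOPR3 and AOS Solyc11g069800 were not called in any comparison that leaves out the shallow stocks, and JAR1 differences stayed under the fold threshold there.

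**Figure D1:**
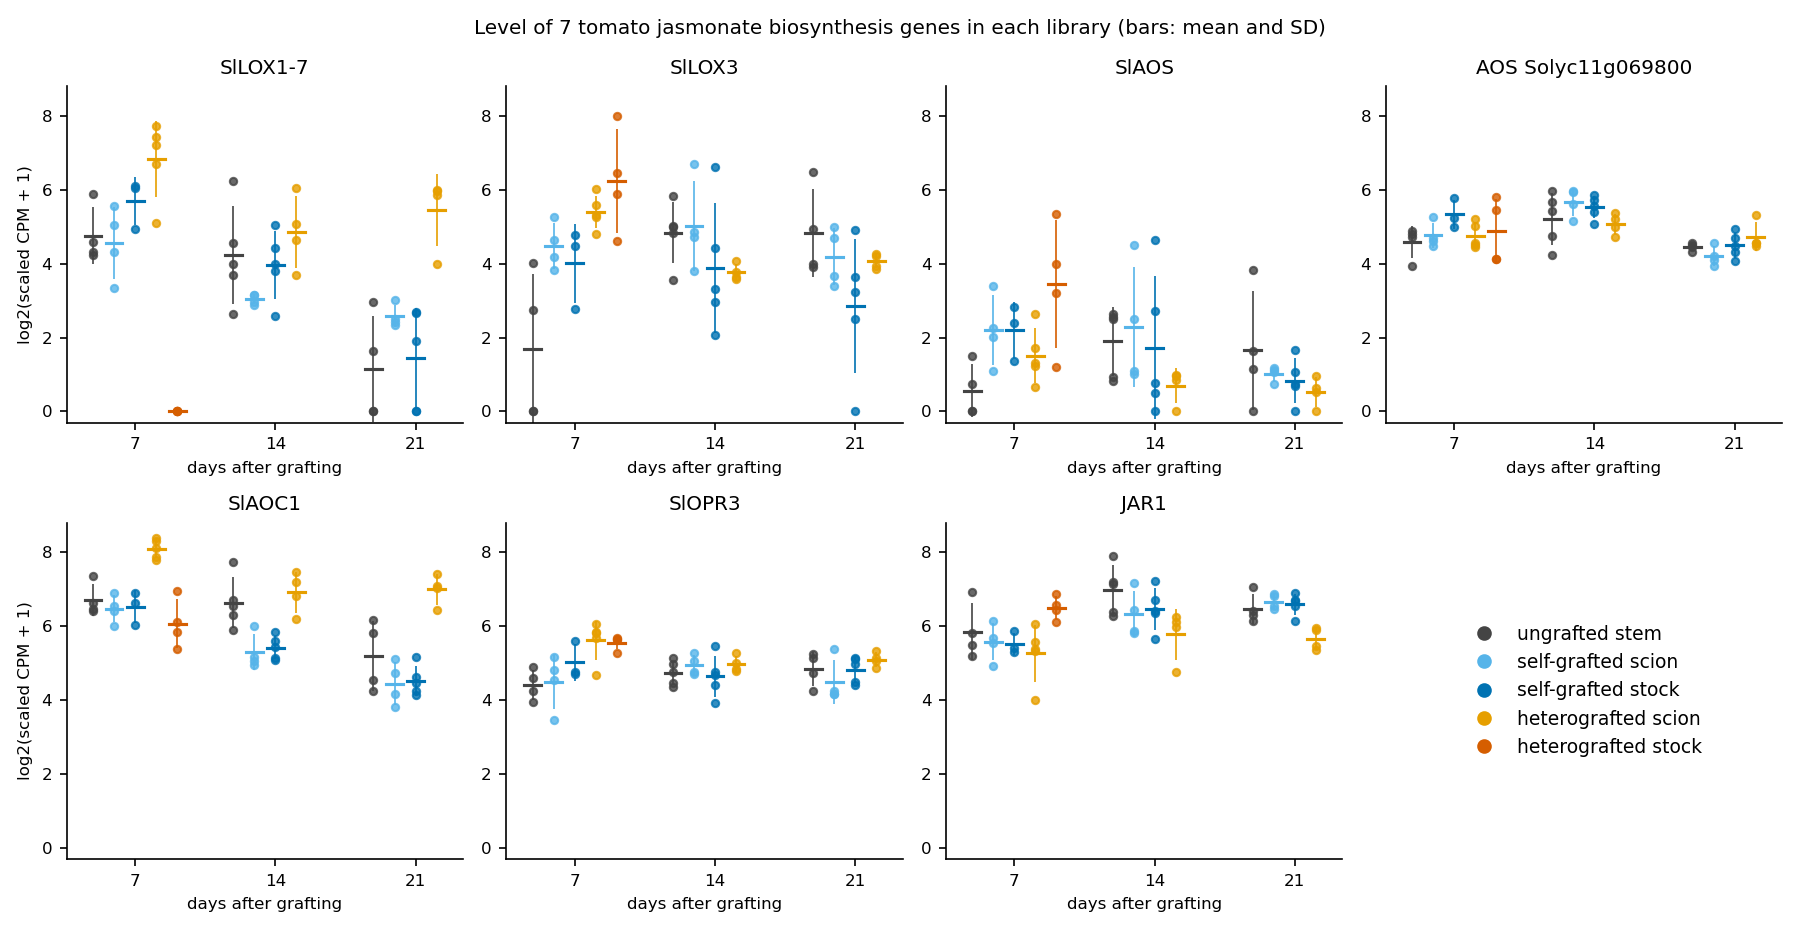
Level of 7 members in every tomato library, as log2(scaled CPM + 1) on the vertical axis, by days after grafting and group (colours); points are libraries, the short bar is the mean of these log2 values and the line 1 SD, and the heterografted stocks of 14 and 21 DAG are left out as too shallow. Among the groups shown at 21 DAG, SlAOC1 and SlLOX1-7 sit highest in the heterografted scions, and SlLOX1-7 lies at 0 in all 4 heterografted stocks of 7 DAG.

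At 7 DAG, 2 members were called higher in heterografted scions than in ungrafted stems and 0 lower, where 5.08% of all tested genes were called higher and 3.08% lower. In heterografted stocks 1 member was called higher and 1 lower, against 9.46% and 10% of all genes. In self-grafted scions and stocks 0 members were called, where 1.93% and 1.19% of genes were. The median log2 fold change of the 6 tested members was 1.28 in heterografted scions and 0.44 in heterografted stocks, and that of all tested genes was 0.12 and 0.05.

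At 14 DAG 0 members were called in heterografted scions against ungrafted stems, where 9.7% of genes were, and 0 in self-grafted scions and stocks, where 3.33% and 1.59% were. The split of all genes in the heterografted scions was 627 higher and 554 lower with TMM and 1221 higher and 331 lower with DESeq2's size factors, and 0 members were called with either. These factors use only genes counted in every library of the day. At 14 DAG that is at most 295 genes, the number detected in the poorest shallow stock, so their values there rest on few genes. At 21 DAG 2 members were called higher in heterografted scions and 0 lower, where 3.88% and 3.56% of genes were, and 0 were called in self-grafted scions and stocks, where 0.156% and 0.0903% were. The direct comparison of heterografted with self-grafted scions called 2 members higher on each day, SlLOX1-7 and SlAOC1, and 0 lower. The share of all genes called higher there was 1.07%, 2.19% and 3.53% at 7, 14 and 21 DAG, and the share called lower 1.3%, 3.44% and 4.6%. At 14 DAG 267 genes were higher and 419 lower with TMM, 591 and 254 with DESeq2's size factors, and both members stayed called.

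SlLOX1-7 was high in heterografted scions and not detected in heterografted stocks at 7 DAG. On that day the heterografted scions held 148, 102, 33.4, 210 and 169 CPM. The self-grafted scions held 46.4, 18.7, 9.09 and 31.8 CPM, and the ungrafted stems 57.8, 17.8, 23 and 19 CPM. The heterografted scion libraries lay above most of the others, with 1 of the 5, at 33.4 CPM, inside the range of both control groups. Against ungrafted stems the log2 fold change was 2.12 ± 0.56 (SE; adjusted p = 0.016), and against self-grafted scions 2.28 ± 0.56 (adjusted p = 0.025). Leaving out any of the ungrafted replicates 2, 3 or 5 ended the first call (highest adjusted p = 0.056), whose log2 fold change was 2.71 without ungrafted replicate 1, and leaving out 6 of the 9 libraries one at a time ended the second (self-grafted replicates 2, 3 or 5, heterografted replicates 1, 4 or 5), with log2 fold changes from 2.02 to 2.68 and adjusted p up to 0.076. The fit on only the 2 groups also ended it (adjusted p = 0.051).

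In the 4 heterografted stocks of 7 DAG, SlLOX1-7 had 0 counts in 7421924. The self-grafted stocks held 67.5, 65.1 and 29.8 CPM, so the groups did not overlap. Among all tested genes, 19.3% lay lower in every heterografted than in every self-grafted stock of that day. With the floor of 3 counts over the group, the level was at least 139-fold lower than in self-grafted stocks, at least 75.7-fold lower than in ungrafted stems and at least 341-fold lower than in heterografted scions. These bounds set the floor against the mean of the other group. They allow for counting error in the group at 0 and not for the spread between libraries. The adjusted p was 3.4e-05 against self-grafted stocks, 4.8e-05 against ungrafted stems and 3.7e-06 against heterografted scions. Between the 2 positions of a self-graft the difference missed the test (log2 fold change 1.03 ± 0.60, adjusted p = 0.79), and the difference between scion and stock itself differed between heterografts and self-grafts (interaction, adjusted p = 2.8e-05).

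The scion difference in SlLOX1-7 was present again at the later days. At 14 DAG the heterografted scions held 24, 65.1, 11.9 and 32.4 CPM and the self-grafted scions 6.39, 6.72, 7.94 and 7.96 CPM, with no overlap. Among all tested genes, 16.5% lay higher in every heterografted than in every self-grafted scion of that day. The fit gave a log2 fold change of 2.18 ± 0.70 (adjusted p = 0.032), which lost its call without any 1 of the 4 self-grafted libraries, or without heterografted replicate 2 or 4, with adjusted p up to 0.13 and log2 fold changes from 1.63 to 2.46. The ungrafted stems spanned both groups, at 5.26, 14.8, 22.4, 11.9 and 74.7 CPM, and the difference of heterografted scions from them missed the test (log2 fold change 0.43 ± 0.62, adjusted p = 0.64).

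At 21 DAG SlLOX1-7 held 62.5, 57.1, 61.1 and 14.9 CPM in heterografted scions. It held 4.64, 4.1, 4.39 and 7.06 CPM in self-grafted scions and 2.09, 0, 6.76 and 0 CPM in ungrafted stems. All 4 heterografted scions lay above both control groups, replicate 4 by the least. Of all tested genes, 15.6% lay higher in every heterografted scion than in every ungrafted stem of that day. Heterografted scions were 4.33 ± 0.94 higher on the log2 scale than ungrafted stems (adjusted p = 0.0053), which held in every fit with 1 library left out (5.79 without ungrafted replicate 4), and 3.21 ± 0.86 against self-grafted scions (adjusted p = 0.018). The latter lost its call without self-grafted replicate 2 or 3 or heterografted replicate 1 or 3, with adjusted p up to 0.057. At this day 19.3% of tested genes lay higher in every heterografted than in every self-grafted scion.

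From 7 to 21 DAG 1 member was called higher and 1 lower in ungrafted stems, beside 10.4% and 9.25% of genes, 2 were called lower and 0 higher in self-grafted scions, beside 10.4% and 8.46%, and 2 lower and 0 higher in self-grafted stocks, beside 12.4% and 6%, and 0 were called in heterografted scions, beside 3.93% in either direction. Between 7 and 21 DAG SlLOX1-7 fell in ungrafted stems (log2 fold change -3.70 ± 0.85, adjusted p = 0.00045). That value was -5.10 without replicate 4 of 21 DAG and -3.07 without replicate 1 of 7 DAG. SlLOX1-7 also fell in self-grafted scions (-2.41 ± 0.76, adjusted p = 0.0086) and in self-grafted stocks (-4.31 ± 0.77, adjusted p = 1.4e-05). The latter held 0, 0, 5.38, 2.72 and 5.39 CPM of it at 21 DAG. In heterografted scions the change of SlLOX1-7 was -1.45 ± 0.62 (adjusted p = 0.089). The difference between the 2 courses in scions was not called (0.96 ± 0.95, adjusted p = 0.58), nor was that of any other member, where 14.5% of genes were. Day, plant age and date of collection cannot be told apart in these courses.

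SlLOX3 followed another pattern. Its highest group mean was in heterografted stocks of 7 DAG (105 ± 102 CPM, SD, n = 4), where the highest library held 254 CPM. On that day the ungrafted stems held 15.2, 0, 5.75 and 0 CPM. The heterografted scions held 37.5, 26.9, 46.9, 38.4 and 63.3 CPM and the heterografted stocks 23.5, 87, 57.5 and 254 CPM. Every heterografted library lay above every ungrafted one. Of all tested genes, 13.5% did so in the scion and 19.8% in the stock.

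SlLOX3 had a log2 fold change of 2.89 ± 0.84 in heterografted scions (adjusted p = 0.023) and 4.20 ± 0.89 in heterografted stocks (adjusted p = 0.0012). The stock call held in every fit with 1 library left out, with log2 fold changes from 3.29 without heterografted stock replicate 5 to 5.85 without ungrafted replicate 1. The scion value ran from 2.47 to 4.55, the latter without ungrafted replicate 1, and its call ended without ungrafted replicate 2, 3 or 5 (highest adjusted p = 0.062). Self-grafted scions, at 24, 17, 13.1 and 37.2 CPM, and self-grafted stocks, at 21.3, 5.84 and 26.1 CPM, overlapped both the ungrafted and the heterografted libraries, with log2 fold changes of 2.02 ± 0.87 and 1.65 ± 0.91 against ungrafted stems that missed the test (adjusted p = 0.28 and 0.42).

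Against self-grafted stocks the heterografted stocks were 2.55 ± 0.88 higher on the log2 scale (adjusted p = 0.048), and this call was lost in 5 of the 7 fits with 1 library left out: each of the self-grafted replicates 2, 3 and 5, and heterografted replicates 2 and 5. It was also lost without a filter (adjusted p = 0.067), with edgeR's filter (adjusted p = 0.0502) and on the 2 groups alone (adjusted p = 0.097). Without replicate 5, at 254 CPM, the log2 fold change was 1.62, the lowest of the 7, and the adjusted p reached 0.22. Against heterografted scions the stocks did not pass the test (1.31 ± 0.69, adjusted p = 0.17), nor did heterografted against self-grafted scions (0.87 ± 0.73, adjusted p = 0.65). The comparison of heterografted with self-grafted stocks called 2 members, SlLOX3 higher and SlLOX1-7 lower, against 2.48% and 7.99% of all genes.

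At the later days SlLOX3 was not called between graft types in deep libraries. At 14 DAG the heterografted scions held 10.9, 11.5, 12.7 and 15.7 CPM, against 27.1, 10.7, 55.6, 30.7 and 31.1 CPM in ungrafted stems and 102, 27.9, 12.9 and 25.3 CPM in self-grafted scions. Replicate 1 of the self-grafted scions and replicate 1 of the self-grafted stocks, at 97.3 CPM, stood far above the other libraries of their groups. At 21 DAG the heterografted scions held 17.3, 18.3, 14.3 and 13.5 CPM and the ungrafted stems 29.8, 88.2, 14.1 and 14.8 CPM. No comparison of scions with ungrafted stems or self-grafts passed the test at 14 or 21 DAG. The log2 fold change of SlLOX3 in heterografted scions was -1.27 against ungrafted stems and -1.70 against self-grafted scions at 14 DAG (adjusted p = 0.27 and 0.16), and -1.24 against ungrafted stems at 21 DAG (adjusted p = 0.36). Within ungrafted stems SlLOX3 rose by 2.67 ± 0.91 on the log2 scale from 7 to 21 DAG (adjusted p = 0.016), a value that was 4.37 without ungrafted replicate 1 of 7 DAG and 1.81 without ungrafted replicate 2 of 21 DAG. The call ended without ungrafted replicate 2 of either day (adjusted p up to 0.12) and in the fit on the 2 groups only (adjusted p = 0.13).

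**Figure D2:**
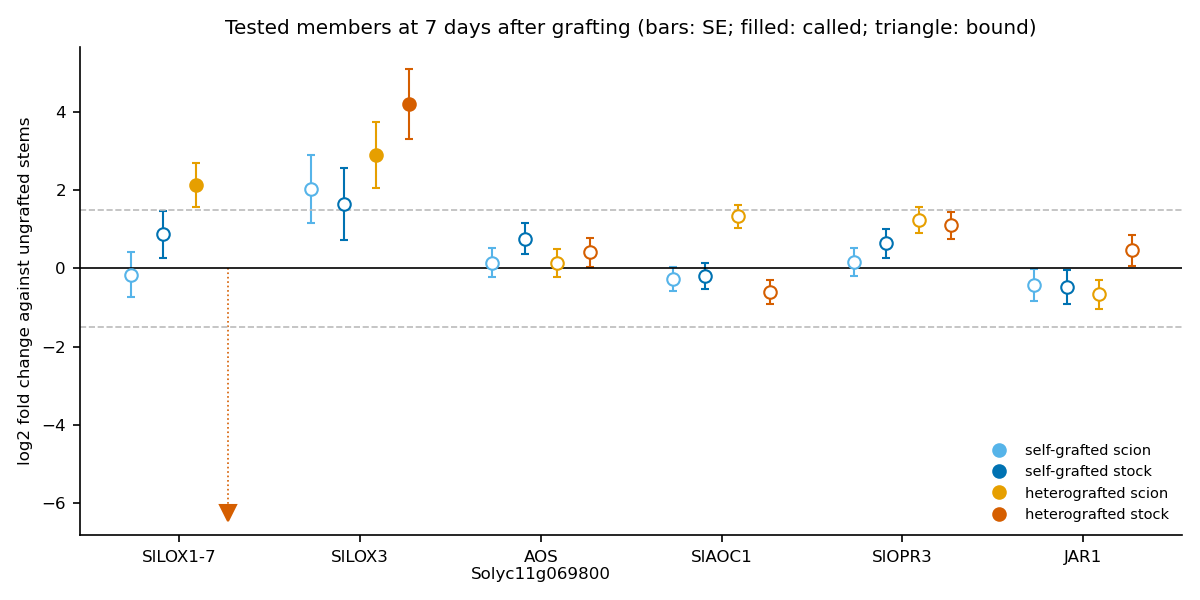
Log2 fold change of the 6 tested members against ungrafted stems at 7 DAG (vertical axis) in each grafted group (colours), with bars of 1 SE, filled points for called values and dashed lines at the threshold of 1.5. The triangle marks the bound for SlLOX1-7 in heterografted stocks, which had 0 counts. SlLOX3 lies highest in heterografted stocks, at 4.20, and SlAOC1 lies above the threshold in no group.

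The remaining lipoxygenases of the list were barely counted. Solyc01g006540 had 288 counts in 20 libraries, with 35 in ungrafted replicate 3 and 32 in self-grafted stock replicate 3 of 7 DAG, and 0 in all 5 heterografted scions and all 4 heterografted stocks of that day. Solyc01g099190 had 3 counts in 1 library, an ungrafted stem of 14 DAG. Reads of near-identical lipoxygenase copies could be split between gene models, and how the counting treated them was not given in the sources used here.

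Allene oxide synthase carries out the committing step towards jasmonates, and its 2 genes are described in turn. SlAOS was scarce, with 417 counts in 49 of the 61 libraries. Its largest single count and its highest group mean were in heterografted stocks of 7 DAG, with 2, 35, 15 and 80 counts (1.31, 14.9, 8.22 and 39.8 CPM), where ungrafted stems had 0, 1, 0 and 2 counts. Self-grafted scions had 7, 2, 3 and 21 counts, self-grafted stocks 13, 4 and 7 counts, and heterografted scions 3, 14, 3, 1 and 5 counts. The highest 2 stock libraries lay above every other library of that day, while stock replicate 1 overlapped the ungrafted stems and both kinds of scion. The share of counts was 33.1 times that of ungrafted stems (exact 95% interval 11.1 to 163, counting error only), and 17.7 times without stock replicate 5 (5.74 to 88.7), an alternative chosen after seeing the data. SlAOS was below the filter and was tested only with the filter removed or replaced by edgeR's own. Without a filter its log2 fold change was 4.55 ± 1.17 against ungrafted stems (adjusted p = 0.0077) and 2.76 ± 0.93 against heterografted scions (adjusted p = 0.044), and the value against self-grafted stocks was 1.93 ± 1.08 (adjusted p = 0.30).

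Several libraries with much SlAOS also held much SlLOX3. In self-grafts of 14 DAG, replicate 1 had 37 counts of SlAOS in the scion and 44 in the stock, where the other 7 libraries had 0 to 12. In ungrafted stems of 21 DAG, replicate 2 had 22 counts of SlAOS, where the others had 0 to 4, and it was also the highest in SlLOX3. Over the 55 deep libraries, the deviations of the 2 genes from their group means had a Pearson r of 0.62, the highest of the 21 pairs formed by 7 members, and without the self-grafted stocks, which may come from the same plants as the self-grafted scions, an r of 0.49 over 42 libraries. Not all libraries followed this: at 7 DAG heterografted scion replicate 2 had the most SlAOS of its group, 14 counts, and the least SlLOX3, 26.9 CPM, and in ungrafted stems replicate 5 had 2 counts of SlAOS and 0 CPM of SlLOX3 while replicate 1 had 0 counts and 15.2 CPM. The points share libraries and depth, and the deviation of SlLOX3 had an r of 0.02 with log2 library size. SlLOX3 and SlAOC1 had an r of 0.52, SlLOX1-7 and SlAOC1 an r of 0.25, and SlLOX1-7 and SlAOS an r of 0.02.

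**Figure D3:**
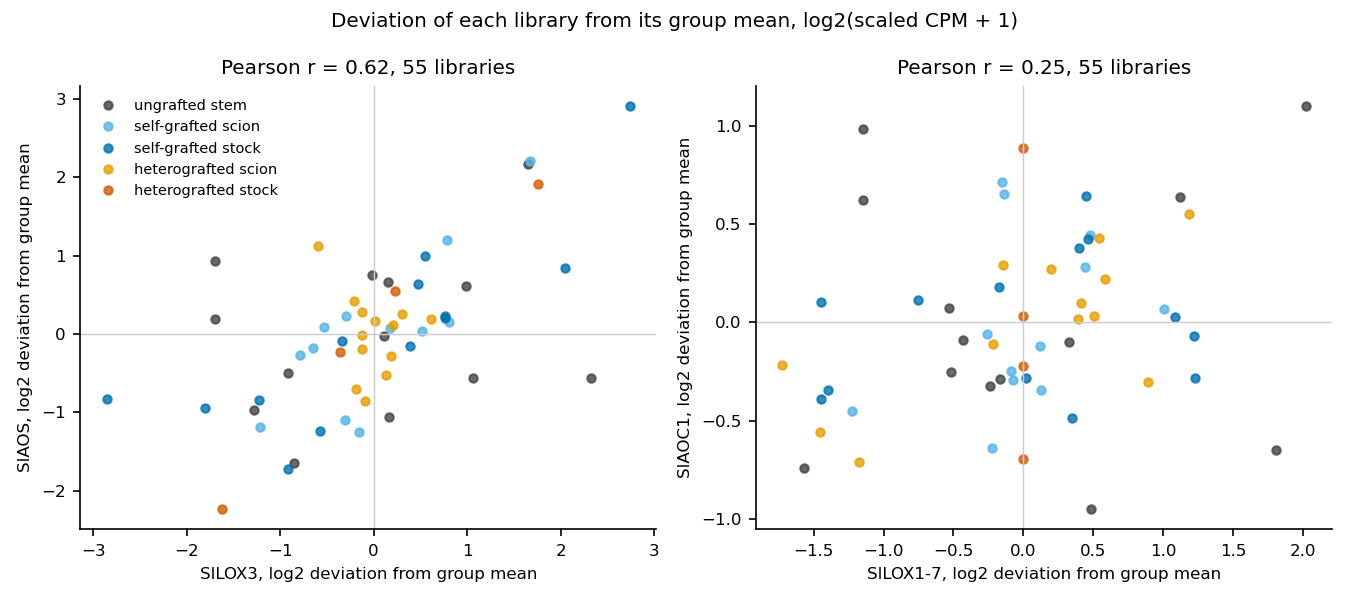
Deviation of each of 55 libraries from its group mean in log2(scaled CPM + 1), for SlLOX3 (horizontal) against SlAOS (vertical) on the left and SlLOX1-7 against SlAOC1 on the right; colours give the group. The left pair has a Pearson r of 0.62 and the right pair an r of 0.25, and the libraries farthest to the upper right on the left come from ungrafted stems, both kinds of self-graft and a heterografted stock.

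AOS Solyc11g069800 had group means over a 2.88-fold range in the deep libraries, beside 2.40-fold for SlOPR3 and 3.30-fold for JAR1. They ran from 17.6 CPM in self-grafted scions of 21 DAG to 50.8 CPM in self-grafted scions of 14 DAG. At 7 DAG the heterografted scions held 31.5, 36.2, 20.7, 22.7 and 21.8 CPM and the ungrafted stems 28.6, 26.7, 14.4 and 25.3 CPM, which overlapped. The log2 fold change between these was 0.13 ± 0.35, and its value in heterografted against self-grafted scions was -0.02 ± 0.35, -0.62 ± 0.30 and 0.54 ± 0.28 at 7, 14 and 21 DAG, none past the test. In self-grafted stocks the change from 7 to 21 DAG was -0.90 ± 0.28 (adjusted p = 0.0093), below the fold threshold.

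SlAOC1, the cyclase that fixes the handedness of the jasmonate precursor, separated heterografted from self-grafted scions on every day. At 7 DAG the heterografted scions held 276, 333, 234, 220 and 317 CPM and the self-grafted scions 91.6, 83.8, 63.6 and 119 CPM. At 14 DAG the values were 110, 175, 72.5 and 144 CPM against 63.3, 32.1, 35.2 and 29.9 CPM, and at 21 DAG 170, 135, 129 and 85.3 CPM against 16.8, 13, 33.2 and 25.5 CPM. Of all tested genes, 6.52% lay higher in every heterografted than in every self-grafted scion of 7 DAG. For SlAOC1 the groups did not overlap on any of the 3 days, which was so in the same direction for 1.68% of all tested genes and for no other member.

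The log2 fold change of SlAOC1 between heterografted and self-grafted scions was 1.61 ± 0.30 at 7 DAG (adjusted p = 0.0029), 1.65 ± 0.36 at 14 DAG (adjusted p = 0.0034) and 2.51 ± 0.42 at 21 DAG (adjusted p = 0.00074). The adjusted p stayed under 0.05 in each of the fits with 1 library left out. The fold change dropped under the threshold without self-grafted replicate 3 at 7 DAG (1.48) and without heterografted replicate 2 at 14 DAG (1.44). The increase of the difference from 7 to 21 DAG was not called (0.93 ± 0.50, adjusted p = 0.23).

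Against ungrafted stems the picture differed by day. Ungrafted stems held 161, 86.3, 84.3 and 96.7 CPM at 7 DAG, 58.3, 78.4, 91.5, 103 and 212 CPM at 14 DAG and 17.8, 54.8, 22.1 and 70.6 CPM at 21 DAG. Heterografted scions lay above all of them at 7 and 21 DAG, as 13.5% and 15.6% of tested genes did, and overlapped them at 14 DAG. The log2 fold change was 1.33 ± 0.30 at 7 DAG, which passed the adjusted p (0.0041) but not the fold threshold, 0.24 ± 0.33 at 14 DAG (adjusted p = 0.63) and 1.65 ± 0.40 at 21 DAG (adjusted p = 0.011). The last dropped under the fold threshold without ungrafted replicate 1 or 4 or heterografted replicate 1 (lowest log2 fold change 1.40) and, narrowly, with DESeq2. At 14 DAG the log2 fold change of self-grafts against ungrafted stems was -1.41 ± 0.35 in scions (adjusted p = 0.014) and -1.32 ± 0.32 in stocks (adjusted p = 0.026), both under the fold threshold. The scion value was called without ungrafted replicate 1 or 2 or without self-grafted replicate 1, and reached -1.71.

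Ordered by mean level over the 13 groups of deep libraries, SlAOC1 was highest in heterografted scions of 7 DAG (276 ± 49.5 CPM, SD, n = 5), followed by heterografted scions of 21 DAG (130 ± 34.8, n = 4) and of 14 DAG (126 ± 44.2, n = 4). Ungrafted stems of 14 and 7 DAG (109 ± 59.9, n = 5, and 107 ± 36.4, n = 4), self-grafted stocks and scions of 7 DAG (93.9 ± 27.2, n = 3, and 89.5 ± 22.9, n = 4) and heterografted stocks of 7 DAG (71.8 ± 35.7, n = 4) came next, each within 1 SD of its neighbours. Self-grafted stocks and scions of 21 DAG were lowest, at 22.7 ± 7.30 (n = 5) and 22.1 ± 9.07 CPM (n = 4). From 7 to 21 DAG SlAOC1 fell in self-grafted scions (-2.03 ± 0.38, adjusted p = 2.9e-05) and stocks (-2.07 ± 0.37, adjusted p = 1.5e-05). The values in ungrafted stems (-1.43 ± 0.37, adjusted p = 0.0016) and heterografted scions (-1.10 ± 0.34, adjusted p = 0.015) passed the adjusted p and not the fold threshold.

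At 7 DAG SlAOC1 was higher in heterografted scions than in heterografted stocks, which come from the reciprocal combination. The heterografted stocks of 7 DAG held 40.5, 67.5, 56.4 and 123 CPM, all below the heterografted scions, as were 18.2% of tested genes. This difference was -1.94 ± 0.30 on the log2 scale (adjusted p = 8.8e-05). They overlapped the self-grafted stocks, at 119, 64.7 and 98.5 CPM, and the difference between these was -0.42 ± 0.33 (adjusted p = 0.44). The interaction of position with graft type was -2.03 ± 0.44 (adjusted p = 0.0047), and SlAOC1 and SlLOX1-7 were the 2 members in which it was called, both lower, where 4.13% of tested genes had a higher and 8.15% a lower interaction. Between heterografted stock and scion the same 2 members were called lower and 0 higher, where 8.93% and 6.03% of genes were, and between self-grafted stock and scion edgeR called 0 members and 0 genes (914 genes had an unadjusted p under 0.05, and DESeq2 called 7 genes and 0 members).

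**Figure D4:**
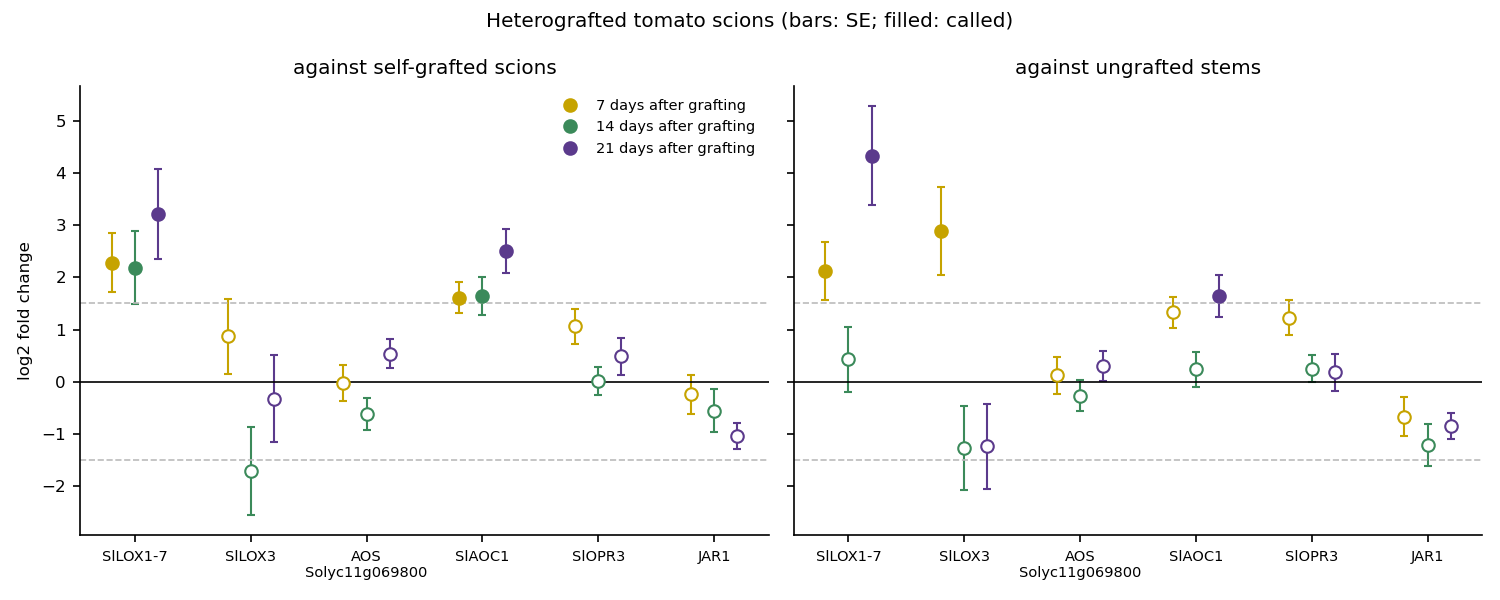
Log2 fold change of the 6 tested members in heterografted scions at 7, 14 and 21 DAG (colours) against self-grafted scions (left) and ungrafted stems (right), with bars of 1 SE, filled points for called values and dashed lines at the threshold of 1.5. SlLOX1-7 and SlAOC1 are filled at all 3 days on the left; on the right SlAOC1 is filled at 21 DAG only, at 1.65.

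SlOPR3, which reduces the cyclic precursor in the peroxisome, differed by less than the fold threshold. At 7 DAG the heterografted scions held 50.5, 54.8, 24.8, 55.9 and 65.5 CPM, the heterografted stocks 37.8, 48.8, 48.8 and 49.7 CPM and the ungrafted stems 28.6, 17.8, 23 and 14.5 CPM. All stocks and 4 of 5 scions lay above the ungrafted stems, and 19.8% of all tested genes lay higher in every such stock. The log2 fold changes of 1.23 ± 0.33 (adjusted p = 0.016) and 1.10 ± 0.35 (adjusted p = 0.019) passed the adjusted p alone. Against self-grafts the values were 1.06 ± 0.33 in scions (adjusted p = 0.067) and 0.45 ± 0.37 in stocks (adjusted p = 0.46). At 14 and 21 DAG the group means of the deep libraries lay between 23.1 and 33.4 CPM.

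JAR1, the conjugating enzyme, was lower in heterografted scions at 21 DAG by a difference under the fold threshold. The heterografted scions held 39.9, 58.2, 61.1 and 42.9 CPM, below every self-grafted scion (86.9, 115, 91.6 and 111 CPM) and every ungrafted stem (131, 77.5, 83.6 and 69 CPM). Of all tested genes, 16.7% lay lower in every heterografted than in every self-grafted scion of that day, and 12.6% lower than in every ungrafted stem. The log2 fold change of JAR1 was -1.03 ± 0.25 (adjusted p = 0.0097) and -0.85 ± 0.25 (adjusted p = 0.029), both under the fold threshold. At 14 DAG the heterografted scions, at 26.3, 74.9, 61.9 and 67.9 CPM, again lay below all ungrafted stems, which ran from 75.9 to 237 CPM, as did 10.6% of tested genes, with a log2 fold change of -1.21 ± 0.40 (adjusted p = 0.032). With DESeq2's size factors, which rest on at most 295 genes at 14 DAG, the median of all genes in that comparison stood at 0.58 rather than 0.11. The value of JAR1 was then -0.76 (adjusted p = 0.18). Against self-grafted scions the value missed the test at 14 DAG (-0.55, adjusted p = 0.38) and at 7 DAG (-0.24, adjusted p = 0.86), as it did against ungrafted stems at 7 DAG (-0.67, adjusted p = 0.27).

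At 7 DAG the heterografted stocks held more JAR1 than the heterografted scions, 115, 67.9, 85.5 and 93.4 CPM against 65.5, 38.8, 14.9, 46.6 and 40.5 CPM. All 4 stocks lay above all 5 scions, as 14.3% of tested genes did. The difference of 1.13 ± 0.37 on the log2 scale (adjusted p = 0.028) was under the fold threshold. Against self-grafted stocks the value was 0.94 ± 0.43 (adjusted p = 0.15), although the libraries did not overlap, as was so for 15.2% of tested genes in that direction.

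The tomato stocks under pepper scions at 21 DAG were shallow, and the median log2 fold change of all tested genes was -3.74 against ungrafted stems and -3.67 against self-grafted stocks. Against ungrafted stems 1 member was called higher and 2 lower, where 5.35% of genes were called higher and 54.9% lower. Against self-grafted stocks the counts were the same, beside 4.39% and 55.4% of genes. SlLOX1-7, absent from the stocks of 7 DAG, had 12, 19 and 8 counts here, 39 of 526350. Its share of all counts was 35.7 times that of ungrafted stems, which had 15 counts of 7224732 (exact 95% interval 19.2 to 69.7, counting error only). Replicate 2, with 32731 counts in all, held 19 of the 39, and without it the ratio was 19.5 (9.50 to 41.0), an alternative chosen after seeing the data. With all 3 libraries the fitted log2 fold changes of SlLOX1-7 were 4.46 ± 1.03 against ungrafted stems and 4.17 ± 0.95 against self-grafted stocks (adjusted p = 0.0011 and 0.00087). Without stock replicate 2 these were 3.55 and 3.28, and without ungrafted replicate 4 the first was 5.91.

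SlAOC1 had 30, 9 and 13 counts in these stocks, a share 4.50 times that of self-grafted stocks (3.25 to 6.14) and 2.88 times that of ungrafted stems (2.09 to 3.89), with fitted values of 1.21 ± 0.46 (adjusted p = 0.029) and 0.42 ± 0.48 (adjusted p = 0.44). JAR1 had 2, 0 and 3 counts, where the share in ungrafted stems would give 43.8, a ratio of 0.114 (0.0369 to 0.268). AOS Solyc11g069800 had 1 count, in replicate 1, where 9.91 would be given, a ratio of 0.101 (0.00254 to 0.572). Their log2 fold changes against ungrafted stems, -4.11 ± 0.44 and -4.24 ± 0.62 (adjusted p = 2.0e-07 and 9.6e-06), were called and lay near the median of all genes. SlOPR3, at 4, 0 and 7 counts, had a share 0.799 times that of ungrafted stems (0.392 to 1.46) and a log2 fold change of -1.39 ± 0.51 (adjusted p = 0.024), under the fold threshold here and past it with DESeq2 (-1.58, adjusted p = 0.0071) and without a filter (-1.71, adjusted p = 0.011). SlLOX3 had 12 counts, all in replicate 1. The paper reports much RNA degradation in the stocks of incompatible grafts, judged from low alignment rates and most marked at the last day. It also cites earlier work in which a minority of tomato and pepper reads mapped to the other genome. What part depth, RNA degradation or pepper reads play in the values of these stocks was not tested.

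Other genes around the route were taken from 4 lists written from general knowledge, which no annotation used here names except SlLOX1-8 (Solyc08g029000) and SlLOX1-2 (Solyc01g099160), named by the study. Of 10 other lipoxygenases, 8 were counted and 5 tested. In heterografted stocks of 7 DAG 1 was called higher than in ungrafted stems and 2 lower, beside 9.46% and 10% of all genes. The one called higher was SlLOX1-8, with 75, 476, 153 and 795 counts (48.9, 202, 83.8 and 395 CPM), where ungrafted stems had 0 counts, an at least 324-fold higher level (adjusted p = 0.00024). It was also higher than in self-grafted stocks, which held 5.67, 7.01 and 18.2 CPM (log2 fold change 4.13 ± 1.15, adjusted p = 0.019), and than in heterografted scions, where 4 of 5 libraries had 0 counts (7.93 ± 1.21, adjusted p = 0.00014). Against self-grafted stocks Solyc03g093360 was called lower (-1.88 ± 0.22, adjusted p = 6.0e-06), beside 2.48% of all genes called higher and 7.99% lower. Against heterografted scions Solyc03g093360 (-1.59 ± 0.20) and Solyc05g014790 (-1.94 ± 0.55) were called lower, beside 6.03% of all genes higher and 8.93% lower.

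At 7 DAG SlLOX1-8 thus had its highest counts in the heterografted stocks, where SlLOX1-7 had none. At 14 DAG the heterografted scions had 0, 0, 7 and 0 counts of SlLOX1-8 and the self-grafted scions 12, 0, 22 and 0, a difference that was not called. Against ungrafted stems of that day the heterografted scions were called lower (log2 fold change -4.64 ± 1.46, adjusted p = 0.026), beside 4.55% of all genes. At 21 DAG the 4 heterografted scions had 0 counts of SlLOX1-8. By the same kind of bound their level was at least 213-fold lower than the mean of self-grafted scions, at 203, 53.3, 39.5 and 40.2 CPM (adjusted p = 0.0022). It was at least 86.1-fold lower than the mean of ungrafted stems, at 15.7, 83.4, 31.3 and 5.75 CPM (adjusted p = 0.0071). From 7 to 21 DAG SlLOX1-8 rose by 4.40 ± 1.19 on the log2 scale in self-grafted scions (adjusted p = 0.0028) and by 3.61 ± 1.21 in self-grafted stocks (adjusted p = 0.015), opposite in sign to SlLOX1-7. It also rose in ungrafted stems, which had 0 counts at 7 DAG (adjusted p = 0.0012). Of all genes, 10.4% were called higher in ungrafted stems, 8.46% in self-grafted scions and 6% in self-grafted stocks. Whether reads of the 2 genes were kept apart in the counting was not tested.

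Of 8 genes of other oxylipin branches and later steps, 7 were counted and 5 tested. At 7 DAG 1 was called higher in heterografted scions and 2 in heterografted stocks than in ungrafted stems, and 0 lower, beside 5.08% and 9.46% of all genes called higher, and their median log2 fold changes were 1.78 and 1.01 beside 0.12 and 0.05 for all genes. Against self-grafts of that day 0 were called in scions and 1 was called higher in stocks, beside 1.07% and 2.48% of all genes called higher (medians -0.06 and 0.56, and 0.06 and -0.07 for all genes). At 21 DAG 0 were called higher and 1 lower in heterografted scions, Solyc10g076600, against ungrafted stems (-1.62 ± 0.36, adjusted p = 0.0078) and against self-grafted scions (-1.74 ± 0.36, adjusted p = 0.0046), where 3.56% and 4.6% of all genes were called lower. Of 15 jasmonate signalling genes, 12 were counted and 7 tested, and 2 were called higher in each of these tissues at 7 DAG and 0 lower, the same 2 genes in both (medians 1.88 and 1.86), beside the same shares of all genes. Against self-grafts of that day 0 were called in either tissue (medians -0.12 and 0.38). At 14 DAG 1 of the 7 was called lower in heterografted scions than in ungrafted stems (median -1.74) and 1 lower than in self-grafted scions (median -2.54), beside 4.55% and 3.44% of all genes called lower and medians of 0.11 and 0.04 for all genes. At 21 DAG 0 were called in heterografted scions against ungrafted stems (median -1.70, where 3.88% of all genes were called higher and 3.56% lower) or self-grafted scions (median -1.14, where 3.53% and 4.6% were). The scion and stock comparisons share the ungrafted libraries.

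Of 7 wound-response proteins, all were counted and 1 was tested, Solyc09g008670. It held 1046, 709, 152, 410 and 827 CPM in heterografted scions of 7 DAG, against 137, 29.5, 39.4 and 116 CPM in self-grafted scions, and 0 counts in all 4 heterografted stocks. The scions differed by 2.95 ± 0.77 on the log2 scale at 7 DAG (adjusted p = 0.034), 2.18 ± 0.71 at 14 DAG (adjusted p = 0.033) and 4.61 ± 0.87 at 21 DAG (adjusted p = 0.0020), and in heterografted stocks the level was at least 42.9-fold lower than in self-grafted stocks (adjusted p = 0.0085). These comparisons also called SlLOX1-7 in the same directions, beside 1.07%, 2.19% and 3.53% of all genes called higher in scions and 7.99% lower in stocks. Against ungrafted stems at 14 DAG Solyc09g008670 was called in heterografted scions (2.28 ± 0.66, adjusted p = 0.017) and SlLOX1-7 was not. In the shallow stocks of 21 DAG SlLOX1-7 was called against self-grafted stocks and Solyc09g008670 was not (-0.84). The list was chosen with earlier results known, so shared calls are no independent support.

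By likeness of level over the 57 libraries of at least 100000 counts (Pearson r of log2(scaled CPM + 1), a description), the genes closest to SlAOC1 were Solyc10g083720 (0.87), Solyc01g109880 (0.85) and Solyc09g005400 (0.84). Those closest to SlLOX1-7 were Solyc04g005070 (0.88), Solyc01g091320 (0.88) and Solyc07g043400 (0.84), and those closest to SlLOX3 were Solyc06g062920 (0.81), Solyc06g069570 (0.75) and Solyc03g116890 (0.74). The highest r for JAR1 was with Solyc03g006130 (0.84), for AOS Solyc11g069800 with Solyc06g008340 (0.85) and for SlOPR3 with Solyc09g011670 (0.67). Among the 6 tested members, SlAOC1 and SlLOX1-7 had the highest r, at 0.67, and SlLOX1-7 and JAR1 the lowest, at -0.33.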

How the data were processed

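Tomato and pepper stems were sequenced from the 3′ ends of transcripts, and only the tomato table was used here. The authors deposited whole counts per gene for 61 tomato libraries, described as biological replicates. They trimmed and filtered reads (FastQC 0.12.1 for quality), aligned them with STAR 2.7.10b to the tomato ITAG4 annotation, sorted them with SAMtools 1.18, quantified with StringTie and removed outlying libraries of low count. How whole counts were taken from StringTie is not given in the sources used here. No table used here annotates tomato genes.

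Genes with a mean of at least 10 counts and 0 counts in under 75% of libraries were tested with edgeR 4.0.16 (R 4.3.3), TMM and the quasi-likelihood test, fitted to the 5 groups of each day, or to 12 groups without the heterografted stocks for changes between days, with Benjamini-Hochberg adjustment over all 12176 genes. SEs were taken from the fold change and its F statistic and are approximate. Plotted and printed levels use one TMM scaling of all libraries, rescaled over the 55 deep ones. Count ratios carry exact 95% intervals, which cover counting error only. Scripts were tested on simulated data. No libraries were identical, and the lowest chi-square per degree of freedom between replicates outside the shallow stocks was 4.15.

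All listed members are named. Up to 3 called genes of each background list, and the 3 genes most alike in level to each tested member, could be named. The members and lists were chosen with earlier results of these data known. DESeq2 1.42.0, DESeq2 size factors, other filters, no fold threshold, the replicate number as a block, fits on the compared groups only, and leaving out each library or the heterografted stocks were the alternatives.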

Additional observations from a re-analysis of the deposited data

Results flagged for a closer look

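Among 94 sets of 1 member in 1 group of 4 to 10 libraries, 17 held a library that stood far from the rest of its group. Chance would give about 1 in 20 only if levels were normally distributed, which was not tested. Levels are scaled CPM without a log transform, and some sets hold few counts. The 17 therefore cannot be set against that rate and are given as a description. The explanation of none of them was tested.

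Self-grafts of 14 DAG held 4 of them, all in replicate 1. SlLOX3 was at 102 in the scion (others 12.9 to 27.9) and at 97.3 in the stock (others 3.21 to 20.5), SlAOS at 23.8 in the stock (others 0 to 5.60) and SlAOC1 at 63.3 in the scion (others 29.9 to 35.2). In ungrafted stems of 7 DAG, replicate 1 stood high in SlLOX1-7, at 57.8 (others 17.8 to 23.0), and in SlAOC1, at 161 (others 84.3 to 96.7). Ungrafted replicate 5 of 14 DAG held 74.7 of SlLOX1-7 (others 5.26 to 22.4), and ungrafted replicate 2 of 21 DAG held 13.1 of SlAOS (others 0 to 2.09).

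Replicate 4 of the heterografted scions of 21 DAG was low in SlLOX1-7, at 14.9 (others 57.1 to 62.5), and high in AOS Solyc11g069800, at 38.7 (others 21.2 to 22.7). SlOPR3 was low in heterografted stock replicate 1 of 7 DAG, at 37.8 (others 48.8 to 49.7), and high in self-grafted scion replicate 2 of 21 DAG, at 40.6 (others 16.9 to 17.9).

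The remaining 5 were sets of few counts. SlAOS was at 0 in heterografted scion replicate 1 of 14 DAG (others 0.820 to 0.982). Solyc01g006540 was at 33.5 in ungrafted replicate 3 and 5.46 in self-grafted scion replicate 1 of 7 DAG, and at 2.87 in heterografted scion replicate 3 of 14 DAG, with 0 in the others of each group. Solyc01g099190 was at 1.34 in ungrafted replicate 2 of 14 DAG and 0 in the others.

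The difference between stock and scion at 7 DAG differed between heterografts and self-grafts for SlAOC1, by -2.03 on the log2 scale (edgeR interaction, adjusted p = 0.0047), and for SlLOX1-7, whose fitted value of -11.96 rests on a group at 0 counts and is no measure of size (adjusted p = 2.8e-05).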

How the results depend on the processing

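No value changed sign in a called result under any alternative run. Without the fold threshold, the members called were 4 for heterografted scions against ungrafted stems at 7 DAG (2 with it), 1 each at 14 DAG for self-grafted scions, self-grafted stocks and heterografted scions against ungrafted stems (0 with it), 5 for heterografted against self-grafted stocks at 21 DAG (3 with it), and, from 7 to 21 DAG, 4 in self-grafted stocks (2 with it) and 1 in heterografted scions (0 with it). It was 3 rather than 2 for heterografted stocks against ungrafted stems (SlOPR3 added) and against heterografted scions (JAR1) at 7 DAG, for heterografted scions against ungrafted stems and self-grafted scions at 21 DAG (JAR1, lower in both), and from 7 to 21 DAG for ungrafted stems (SlAOC1) and self-grafted scions (JAR1), and 4 rather than 3 for heterografted stocks against ungrafted stems at 21 DAG (SlOPR3). Heterografted against self-grafted stocks at 7 DAG called 1 member rather than 2, SlLOX1-7 and not SlLOX3, without a filter, with edgeR's filter, with the replicate block and on the compared groups only. Heterografted against self-grafted scions at 7 DAG called 1 on the compared groups only. DESeq2 called 1 rather than 2 for heterografted scions against ungrafted stems at 21 DAG. From 7 to 21 DAG in ungrafted stems 1 was called on the compared groups only.

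Leaving out 1 library at a time gave 0 to 3 members for heterografted scions against ungrafted stems at 7 DAG and 1 to 2 at 21 DAG. Heterografted against self-grafted scions gave 0 to 2, 0 to 2 and 1 to 2 at 7, 14 and 21 DAG. Heterografted against self-grafted stocks gave 1 to 2 at 7 DAG and 3 to 5 at 21 DAG, self-grafted scions against ungrafted stems 0 to 1 at 14 DAG, heterografted stocks against ungrafted stems 3 to 4 at 21 DAG, and ungrafted stems from 7 to 21 DAG 1 to 3. The other 16 counts did not move.

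Replicate numbers are shared between groups, but over all groups same-numbered libraries did not deviate together (81 pairs, correlation of deviations -0.23 to 0.24, median 0.01, 8 over 0.1). Pairs of other numbers were alike (307 pairs, median 0.0008, 29 over 0.1), so the numbers were not taken to pair libraries. Scion and stock pieces of a self-graft may come from 1 plant, which the sources used here do not tie to the numbers. Their same-numbered pairs had median correlations of -0.04, 0.14 and 0.03 at 7, 14 and 21 DAG (up to 0.08, 0.23 and 0.24), and not every pair was over 0.1. Their pairs of other numbers had medians of 0.01, -0.03 and -0.02, so same-numbered pairs stood higher at 14 DAG. With the replicate block, 1 member was called in heterografted against self-grafted scions at 21 DAG and 2 without it (SlLOX1-7 not called, adjusted p = 0.057). From 7 to 21 DAG the block gave 0 members in ungrafted stems (SlLOX1-7 and SlLOX3 not called, adjusted p = 0.077 and 0.21). It gave 1 in self-grafted scions (SlLOX1-7 not called, adjusted p = 0.21), and without it 2 were called in each. The other counts, apart from the stocks above, did not move. In the fits over days the block was coded against the last replicate number of each day. Its changes within a group from 7 to 21 DAG therefore compare fitted levels at that replicate number. They do not compare group means adjusted for replicate, so they cannot test whether those calls hold.

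Leaving out the heterografted stocks at 14 DAG, or at 21 DAG (an alternative chosen after seeing the data), moved no count of members. DESeq2's size factors moved the median of all genes by 0.47 and 0.41 at 14 DAG in heterografted scions against ungrafted stems and self-grafted scions, and by -0.16 and -0.24 at 21 DAG in self-grafted scions and stocks against ungrafted stems, where the split went from 17 higher and 2 lower to 13 and 4 and from 8 and 3 to 7 and 5. Because of the shallow stocks, these factors rest on at most 295 genes at 14 DAG and at most 2538 at 21 DAG. A fit on the compared groups only does not apply to the interactions. No member was detectable at the depth of the heterografted stocks of 14 DAG.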
